A study of Rattus norvegicus with 42 samples.

Results

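Ribosomal protein genes of the cytosolic ribosome were followed in the blood of 42 rats. A gene was a member when its probe set carried 1 gene symbol made of Rpl or Rps and a number, or was Rpsa, Rplp0, Rplp1 or Rplp2, with the Rps6k kinases left out. Each gene was represented by its probe set of highest mean, which gave 50 genes of the 14217 named on the array (0.352%). The rule used no difference between groups. By symbol, 34 of the 50 genes were counted with the large subunit and 16 with the small subunit. They comprised 42 ribosomal proteins proper (29 large, 13 small), 6 paralogs (Rpl3l, Rpl7l1, Rpl26l1, Rpl39l1, Rps27l, Rps4y2) and 2 pseudogenes (Rpl37-ps2, Rps4x-ps1). Rplp1, Rplp2 and Rps19 had no probe set that met the rule. A further 36 probe sets carried a ribosomal protein symbol along with other symbols and were counted only as a group.

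The rats were male Sprague-Dawley rats of 280 to 350 g, 6 in each of 7 groups. Tissue plasminogen activator (tPA), the enzyme that turns plasminogen into clot-dissolving plasmin, was given at 3.3 mg/kg as the recombinant human protein. One group received tPA without any occlusion of the middle cerebral artery (tPA without MCAO). Reperfused-MCAO rats had the artery blocked for 2 h by a suture that was then withdrawn, and permanent-MCAO rats kept the suture; each kind of stroke had a group given tPA at 3 h and a group without it. Rats given tPA without MCAO also received it at 3 h. The anesthesia group had neither MCAO nor tPA, and the naive group had none of the treatments. MCAO was done under isoflurane. Blood was drawn at 24 h by cardiac puncture under isoflurane, and tPA was injected into the peritoneum. No group had the neck surgery without occlusion, and the source does not state whether the rats given tPA alone were anesthetised at dosing. The 6 arrays of a group were made from separate rats.

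The ribosome is built of a small subunit, which reads the messenger RNA, and a large subunit, which joins amino acids and holds the tunnel through which the new chain leaves. Its proteins are needed in equal numbers, and their messengers are among the most abundant of most cells. In blood, lymphocytes and immature red cells (reticulocytes) carry much of this RNA, while mature red cells carry almost none. Many ribosomal protein messengers begin with a C followed by an unbroken run of C and T (a terminal oligopyrimidine, or TOP, tract), through which the growth regulator mTOR controls their translation.

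The sequences around annotated gene starts are shown because the TOP tract is the sequence feature this family is best known for. Among members with a promoter entry, Rps13, Rpl6, Rpl3, Rpl18, Rpl41 and Rps24 had the most extreme called tPA by stroke terms below. Rpl19, Rpl14 and Rpl39 were added because they were called there and their run of C and T begins at the start. Other called members with no run found, such as Rpl5, Rpl7a and Rps16, are not shown. Each window holds 10 bases before and 20 bases from the RefSeq start in the GRCr8 assembly, read on the coding strand. Capitals mark a C followed by at least 4 C or T that begins within 3 bases of the start. The windows lie at chr10:83519054-83519083 (Rpl19, plus strand), chr8:129163610-129163639 (Rpl14, plus), chrX:121195877-121195906 (Rpl39, minus), chr16:96507-96536 (Rps24, plus), chr1:180009641-180009670 (Rps13, minus), chr7:113507971-113508000 (Rpl3, minus), chr12:41011671-41011700 (Rpl6, minus), chr1:105325260-105325289 (Rpl18, plus) and chr7:1563478-1563507 (Rpl41, minus).
Rpl19: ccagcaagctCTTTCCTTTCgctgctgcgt
Rpl14: ggccctctccCTTCTCgctgagcgccgcca
Rpl39: taatcgcgttCTTCCggcctgtcctttctc
Rps24: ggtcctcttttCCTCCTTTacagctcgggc
Rps13: ttcctacctcgttCTCTCTTTgcttccaga
Rpl3: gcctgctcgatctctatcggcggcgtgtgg
Rpl6: ttacatcactagatggcgggtgaaaaggcg
Rpl18: acctggtctagcaggaggcgccatcatggt
Rpl41: ctcggaagtgacgacaccaagcacgccatt

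Of the 50 members, 43 had a promoter entry. The run began exactly at the annotated start in 12 of the 43 (27.9%), against 2.63% of all 33469 entries. It began within 3 bases of the start in 19 of 43 (44.2%), against 11.2% of all entries. It was present within 3 bases in 13 of 29 large subunit genes and 6 of 14 small subunit genes. The letters were searched on the coding strand only, and an annotated start can lie some bases away from the true one, so the 4 last windows above show only that these letters were not found there.

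The ribosomal protein genes were among the brightest on the array. The median of their means was 12.69 on the log2 scale, against 4.90 for all named genes. They supplied 20 of the 88 genes at log2 13 or more and 34 of the 213 at log2 12 or more. Brightness differs between probe sets for reasons of probe design as well, so these levels place the probe sets on the array's scale and do not rank the messengers themselves. The highest means belonged to Rps29 (14.04), Rps23 (14.01), Rpl19 (13.85), Rpl41 (13.70) and Rps3a (13.66). Rps23 is a small subunit protein of the decoding centre, and Rpl41 is a very short, basic large subunit peptide.

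**Figure D1:**
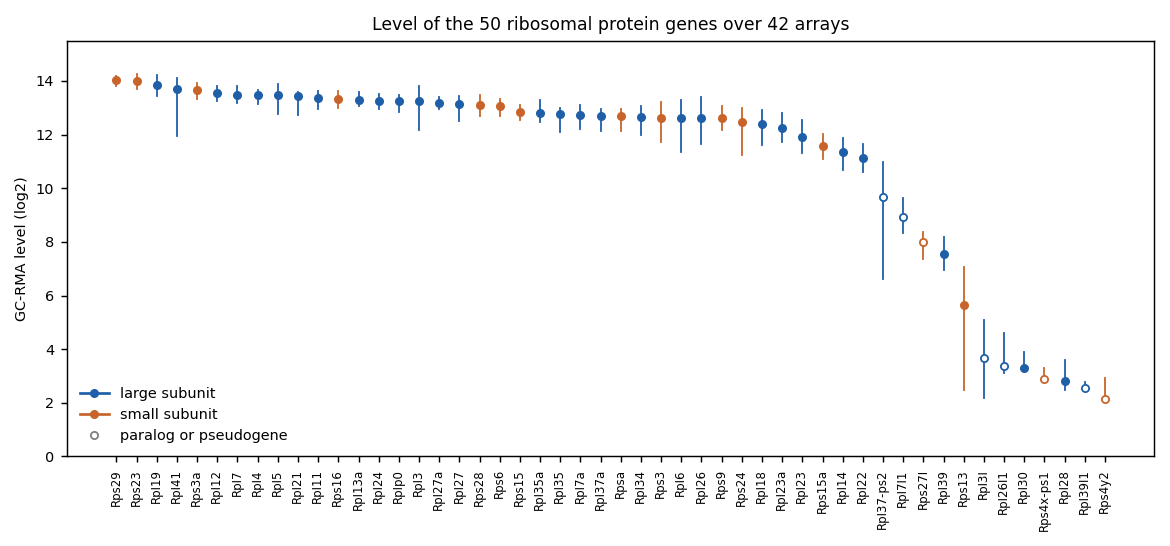
Mean GC-RMA level (log2, y axis) of each of the 50 genes over 42 arrays, with lines from the lowest to the highest array; blue is large subunit, orange small, and open circles are paralogs or pseudogenes. A plateau of 38 genes lies at or above log2 10, and 7 genes lie under log2 4.

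The levels fell into a plateau and a tail. In all, 38 members had a mean of at least log2 10, the dimmest of them at 11.12. The other 12 were the 8 paralogs and pseudogenes together with Rpl39, Rps13, Rpl28 and Rpl30. Rpl3l, a copy of Rpl3 known from muscle, averaged 3.66, Rpl26l1 3.37, Rpl39l1 2.55 and Rps4y2 2.16, all under log2 4 where small differences carry little information. Rpl28 (2.82) and Rpl30 (3.30) were dim as well, although both are proteins of every ribosome, so their named probe sets say little about their messengers. The plateau genes varied little. Their median standard deviation over 42 arrays was 0.17, against 0.35 for the 845 other genes at log2 10 or more.

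Labels and arrays were checked before the comparisons. Of 5 brain marker genes 4 averaged under log2 4, while all 8 measured erythroid and all 9 measured T cell markers averaged over log2 8. Array medians ran from 3.05 to 3.26. One array stood apart: replicate 2 of tPA without MCAO had a mean hybridization control level (bacterial RNAs added to every sample) of 9.72, against a median of 11.99 over all arrays. The comparisons that hold this array were also made without it. Replicate 1 of permanent-MCAO with tPA was the lowest array of its group for Rpl6, Rpl3, Rpl5 and Rps13, and comparisons were repeated without it too.

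Rats given tPA without MCAO were set against anesthesia rats. Whether these tPA rats were anesthetised at dosing is not stated. A difference in anesthesia may therefore lie in this comparison along with that in tPA, which was not tested. Of the 50 members 14 rose and 1 fell at p of at most 0.01 and a fold of at least 1.2 (15 called), against 13.7% of all 31042 probe sets (9.15% higher, 4.59% lower). Bright probe sets were called more often than dim ones. Of the 1221 probe sets at log2 10 or more 51.3% were called (28.7% higher, 22.5% lower), against 12 of the 38 members at that level (31.6%, all higher). The members' share thus lay between that of all probe sets and that of probe sets of like brightness, and neither gap was tested. The median difference was 0.12 log2 over the members, with 35 of 50 positive, against -0.01 over all probe sets and 0.06 over the bright ones. With Benjamini-Hochberg adjustment over all probe sets, 16 members had an adjusted p of at most 0.05, against 12.5% of all probe sets and 46.3% of the bright ones.

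**Figure D2:**
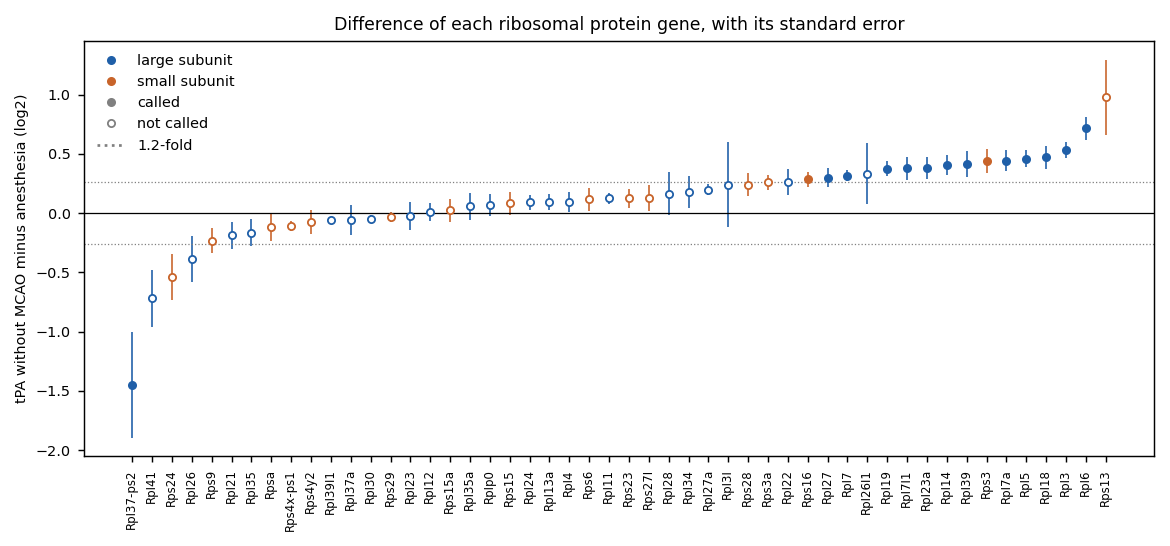
Difference in log2 level (y axis) between tPA without MCAO and anesthesia for each member, with the standard error from limma (6 arrays per group); filled points were called and dotted lines mark a 1.2-fold change. Called large subunit genes (blue) run from Rpl27 at 0.30 to Rpl6 at 0.72, the dim Rps13 lies highest at 0.98 and was not called, and Rpl37-ps2 lies lowest at -1.45.

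Rpl6 rose most among the called genes; its protein lies on the outer face of the large subunit. Its level ran from 13.05 through a median of 13.20 to 13.29 in rats given tPA without MCAO, against 12.22, 12.41 and 12.78 in anesthesia rats. The groups did not overlap, and the difference was 0.72 ± 0.10 log2 (SE, adjusted p = 0.0058), a 1.64-fold change. Rpl3, which lies at the peptide-joining centre, ran from 13.60 through 13.69 to 13.80 after tPA without MCAO, against 12.98, 13.18 and 13.38 after anesthesia. Again every tPA array lay above every anesthesia array (0.53 ± 0.07, adjusted p = 0.00489).

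Rpl5 binds 5S ribosomal RNA together with Rpl11, and both proteins can restrain Mdm2 and so stabilise p53 when ribosome assembly fails. Rpl5 ran from 13.74 through 13.86 to 13.90 in rats given tPA without MCAO, against 13.19, 13.37 and 13.61 in anesthesia rats (0.46 ± 0.07). Its groups were apart, whereas its partner Rpl11 differed by 0.12 ± 0.04 (adjusted p = 0.087) with overlapping groups and was not called. Rpl18 lay between 12.65 and 12.91 after tPA without MCAO, against 12.10 to 12.53 after anesthesia (0.47 ± 0.10, adjusted p = 0.0164).

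The other members that rose were Rpl7a (0.44), Rps3 (0.44), Rpl39 (0.41), Rpl14 (0.41), Rpl23a (0.38), Rpl7l1 (0.38), Rpl19 (0.38), Rpl7 (0.32), Rpl27 (0.30) and Rps16 (0.28). Their adjusted p values were all under 0.05. Rpl27a and Rps3a had adjusted p values under 0.05 as well, with folds just under 1.2. The groups did not overlap for 9 of the 50 members, against 6.18% of all probe sets and 24.5% of bright ones. These 9 were Rpl6, Rpl3, Rpl18, Rpl5, Rpl7a, Rpl19, Rpl7 and Rps16, which lay higher after tPA, and Rpl41, which lay lower.

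The size of these differences depended on the group set against tPA. With naive rats in place of anesthesia rats, a comparison added after the data were seen, 4 members rose and none fell, against 5.19% of all probe sets, and the median difference was 0.04. The 4 were Rpl6 (0.40 ± 0.10), Rpl3 (0.33 ± 0.09), Rpl5 (0.29 ± 0.07) and Rpl7a (0.28 ± 0.07), each with an adjusted p of 0.126 in limma. In naive rats Rpl6 ran from 12.49 through 12.83 to 13.13, Rpl3 from 13.17 through 13.33 to 13.78 and Rpl5 from 13.37 through 13.50 to 13.83. All 3 of these naive ranges overlapped those of tPA without MCAO. Rpl18 differed by 0.28 ± 0.09 from naive rats and was not called. The other 11 members called against anesthesia kept their sign but were not called against naive rats.

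The members on the low side were few, and their values spread widely. Rpl41 ran from 11.95 through 13.45 to 13.54 in rats given tPA without MCAO, against 13.82, 13.91 and 13.95 in anesthesia rats. The lowest value was that of replicate 2, the array with low hybridization controls. With it the difference was -0.72 ± 0.24 (adjusted p = 0.0746), which was not called. Without it Rpl41 fell by 0.47 ± 0.06 (adjusted p = 0.00692). Against naive rats, with replicate 2 kept, Rpl41 stood at -0.61 ± 0.25 and was not called. Its naive values ran from 13.50 to 13.99 and overlapped those of tPA without MCAO.

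Rps24, a small subunit protein whose human gene is mutated in some patients with Diamond-Blackfan anemia, behaved alike. It ran from 11.24 through 12.24 to 12.50 after tPA without MCAO, against 12.44, 12.69 and 12.87 after anesthesia (-0.54 ± 0.20, not called). Without replicate 2 the difference was -0.36 ± 0.11, which was called at an adjusted p of 0.0675. Against naive rats, with replicate 2 kept, Rps24 stood at -0.48 ± 0.20 and was not called. Rpl37-ps2, annotated as a pseudogene of the large subunit gene Rpl37, ran from 6.60 through 8.83 to 9.19 after tPA, against 9.14, 9.93 and 10.95 after anesthesia. It fell by 1.45 ± 0.45 (adjusted p = 0.0565), and without replicate 2 it fell by 1.07 ± 0.29. With the hybridization control level in the fit it stood at -0.05 ± 0.29 and Rps24 at -0.03 ± 0.20. Plain least squares and the replicate block did not call it, and against naive rats it stood at -0.84 ± 0.47. Probes for this entry may also bind the messenger of the parent gene, which was not measured by a member probe set of its own.

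Without replicate 2, 18 members were called in this comparison (15 higher, 3 lower), against 11.5% of all probe sets, among them all 15 called with it, along with Rpl41, Rps24 and Rps3a. Where the hybridization control level was added to the fit, 4 members were still called (Rpl6, Rpl3, Rpl5 and Rpl7), against 2.59% of all probe sets. Their adjusted p values in limma were 0.244, 0.225, 0.273 and 0.244, and Rpl41 stood at 0.08 ± 0.13. That control level itself differed between the groups, at 11.16 ± 0.75 after tPA without MCAO and 12.22 ± 0.22 after anesthesia (SD, n = 6 each); the group and the control level cannot be fully told apart.

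**Figure D3:**
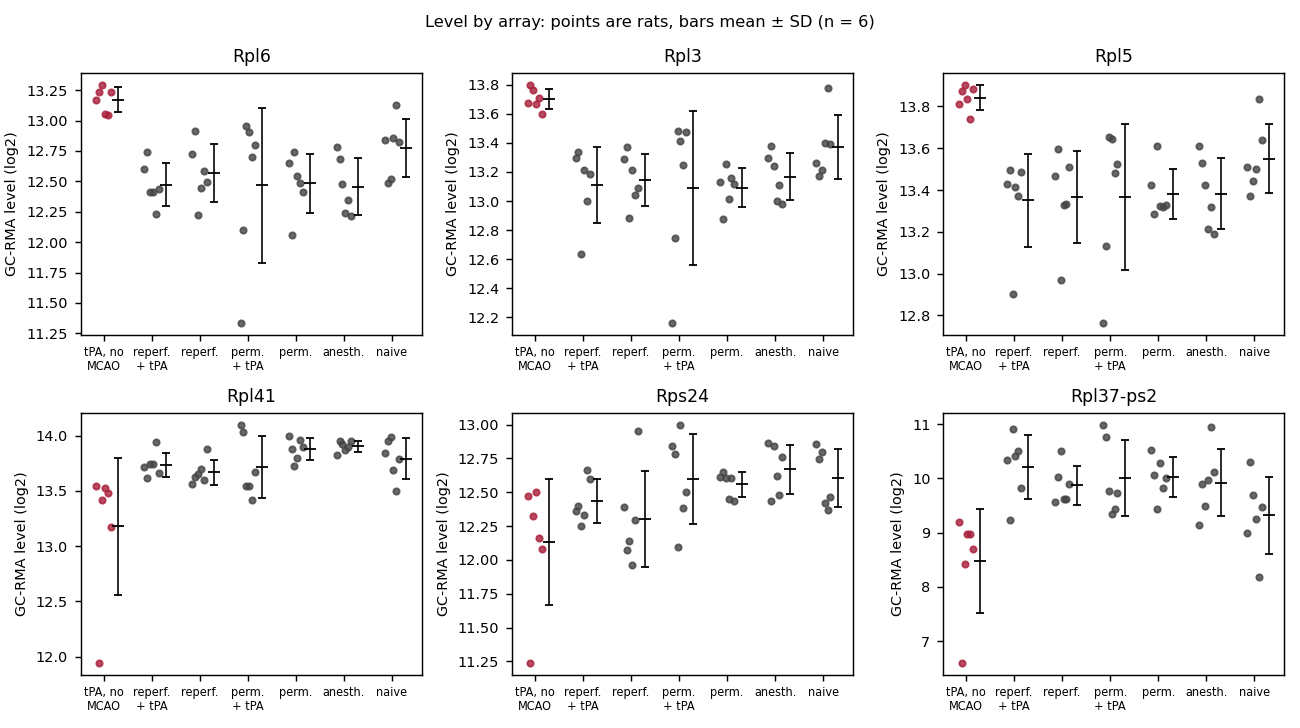
GC-RMA level (log2, y axis) of 6 members on each array by group (x axis), with mean ± SD beside the points (n = 6 rats); tPA without MCAO is in red. Its arrays lie high for Rpl6, Rpl3 and Rpl5, and low for Rpl41 and Rpl37-ps2, where 1 array lies far below the rest.

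Markers of blood cell types moved in the same comparison. All 9 T cell markers rose after tPA without MCAO, and their summed log2 level ran from 99.2 to 103.2, against 92.4 to 96.5 after anesthesia. All 8 erythroid and reticulocyte markers were lower and 3 of them were called, with a summed level of 85.1 to 100.4 against 102.4 to 105.9. The 85.1 was that of replicate 2, the array with low hybridization controls, and the next lowest was 94.9. All 7 platelet markers were lower and 5 were called, with a summed level of 66.2 to 72.4 against 70.4 to 75.5. These counts stand beside 9.15% of all probe sets called higher and 4.59% lower. Of the bright ones 28.7% were called higher and 22.5% lower. In naive rats the summed level of the T cell markers ran from 95.8 to 99.6. It ran there from 98.5 to 104.6 for the erythroid and from 68.0 to 72.8 for the platelet markers. All 3 of these naive ranges overlapped those of tPA without MCAO. The difference between probe sets at the 5′ and 3′ ends of the actin messenger, a sign of RNA quality, was 4.16 ± 0.56 log2 after tPA and 3.40 ± 0.44 after anesthesia. Replicate 2 was highest after tPA here too (5.19, next 4.15). In bulk blood, fewer cells of a type and less RNA per cell cannot be told apart. What part these shifts have in the ribosomal protein differences was not tested.

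The probe sets of one gene were compared where a member had more than 1. Both Rpl7 probe sets rose (0.32 and 0.46), as did both Rpl14 probe sets (0.41 and 0.45). Rpl7l1 rose on 1 probe set (0.38), and the other differed by 0.23 without being called. For Rpl3 the bright probe set rose by 0.53, while a second at a mean of 6.67 differed by 0.08. The Rps24 probe sets disagreed in sign, at -0.54 for the bright one and 0.49 for one at a mean of 5.40, neither of them called. The 3 probe sets of Rpsa, a protein at the messenger exit side that was first described as a laminin receptor, differed by -0.12, -0.08 and -0.20, none of them called. Among the 36 probe sets with several symbols, 7 rose and none fell, with a median difference of 0.03. Of all probe sets 9.15% rose and 4.59% fell, and of bright ones 28.7% rose and 22.5% fell.

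Members were then read by their place in the ribosome, from lists of known roles. At the P stalk, which recruits elongation factors, Rplp0 (0.07) and Rpl12 (0.01) were not called. Along the exit tunnel and its rim, where nascent chains meet chaperones and targeting factors, Rpl39, Rpl19 and Rpl23a rose, while Rpl4, Rpl26 and Rpl35 were not called; Rpl26 stood at -0.38 ± 0.20. At the messenger entry Rps3 rose, and Rps9 stood at -0.23 ± 0.10 without being called. Rps6, the target of S6 kinases, differed by 0.12 ± 0.10 and was not called. Of 10 measured genes whose human counterparts are mutated in Diamond-Blackfan anemia, 3 rose (Rpl5, Rpl18, Rpl27), none fell by the thresholds, and the median difference was 0.09. Here too the share over all probe sets was 13.7%, and over bright ones 51.3%.

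Other genes of the translation apparatus gave the setting, to be read against 13.7% of all probe sets called (9.15% higher, 4.59% lower). Of 29 elongation and initiation factors 7 rose and 1 fell after tPA without MCAO, with a median difference of 0.22. Eif3h (0.41 ± 0.06) and Eif3m (0.54 ± 0.08), subunits of the initiation factor that holds the small subunit, were among those that rose. Of 35 ribosome assembly genes 10 rose and none fell (median 0.30), among them Ncl, the nucleolar protein nucleolin (0.62 ± 0.10), and Tsr1, a factor of small subunit maturation (0.47 ± 0.13). Rack1, a small subunit protein whose symbol lies outside the rule, rose by 0.35 ± 0.05. Of 73 mitochondrial ribosomal protein genes 13 rose and 10 fell (median 0.21). Of 12 genes of translation control none rose and 2 fell (median 0.10).

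Whether tPA acted differently in rats with a stroke was asked with the tPA by stroke term over all 42 arrays, the tPA effect with MCAO minus the tPA effect without MCAO. At p of at most 0.05 and a fold of at least 1.2, 17 members were called, 14 negative and 3 positive. This compares with 21.0% of all probe sets (14.4% negative, 6.62% positive) and 66.3% of the bright ones (31.9% negative, 34.4% positive). At log2 10 or more 14 of 38 members were called (36.8%). The median was -0.14 over the members, against 0.01 over all probe sets and -0.05 over the bright ones. An adjusted p of at most 0.05 was reached by 13 members, against 9.47% of all probe sets and 44.4% of the bright ones. The term contains the arrays of the comparison above, so its values repeat that difference and are not separate evidence.

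Among negative members, Rpl6 had a term of -0.77 ± 0.21 (adjusted p = 0.0194), Rpl3 -0.55 ± 0.18 (adjusted p = 0.0441) and Rpl18 -0.54 ± 0.15 (adjusted p = 0.0208). Rpl19 had the smallest adjusted p (-0.43 ± 0.09, adjusted p = 0.00517). In reperfused-MCAO rats Rpl19 ran from 13.56 through 13.82 to 13.87 with tPA, against 13.72, 13.84 and 13.94 without it. In permanent-MCAO rats it ran from 13.43 through 13.86 to 14.02 with tPA, against 13.73, 13.85 and 13.94 without it. Without MCAO it ran from 14.00 through 14.10 to 14.24 after tPA, against 13.59, 13.73 and 13.93 after anesthesia, and only there were the groups apart.

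The most negative term was that of Rps13, a small subunit protein at the subunit interface, at -1.39 ± 0.46 (adjusted p = 0.0483). Its probe set was dim, with a mean of 5.66. It lay between 6.07 and 7.06 after tPA without MCAO, against 4.31 to 6.25 after anesthesia. In permanent-MCAO rats it lay between 2.47 and 6.21 with tPA, against 4.92 to 6.45 without, and the lowest value was that of replicate 1. Without that array the term for Rps13 was -1.13 and was still called.

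The positive terms were those of Rpl37-ps2 (1.61 ± 0.44, adjusted p = 0.0194), Rpl41 (0.67 ± 0.19, adjusted p = 0.0243) and Rps24 (0.63 ± 0.20, adjusted p = 0.0444). Without replicate 2 of tPA without MCAO they were 1.23, 0.43 and 0.45, all still called, whereas Rpl39 (-0.30 ± 0.13 with that array) was no longer called. With the hybridization control level in the fit, 3 members were called and Rpl41 stood at -0.00. The share of all probe sets called under that fit is not given here.

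Averaged over rats with and without MCAO, the tPA term called 3 of 50 members (1 higher, 2 lower). Of all 31042 probe sets 3711 were called (12%; 6.91% higher, 5.05% lower), and 39.6% of bright ones. Rpl41 fell by 0.38 ± 0.10 (adjusted p = 0.0189), Rpl37-ps2 fell by 0.65 ± 0.22 (adjusted p = 0.0835) and Rpl6 rose by 0.33 ± 0.11 (adjusted p = 0.0622). Without replicate 2 of tPA without MCAO the value for Rpl41 was -0.26, which was not called. Under quantile scaling of the arrays 9 members were called, and without replicate 1 of permanent-MCAO with tPA 5 were. The shares of all probe sets under these settings are not given here.

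With a stroke, tPA brought no call among the members. In reperfused-MCAO rats with against without tPA, 0 of 50 members were called, where 0.722% of all probe sets and 2.46% of bright ones were, and 2 members had an unadjusted p under 0.05 in limma, Rpl30 and Rps4x-ps1, both dim. The least squares fit without shared variances called 0 as well. Differences of the 38 bright members ran from -0.09 to 0.14 log2, with a median of 0.02. In permanent-MCAO rats with against without tPA, 0 members were called, against 0.322% of all probe sets and 0.410% of bright ones. Here 3 had an unadjusted p under 0.05 in limma, and the least squares fit again called 0. The bright members ran from -0.19 to 0.10 with a median of -0.05. Rps23 stood lowest in p (-0.17 ± 0.06, adjusted p = 1). The tPA effects in the 2 kinds of stroke were also set against each other. None of the 50 members was called, against 0.296% of all probe sets and 0.983% of bright ones, and 1 had an unadjusted p under 0.05 in limma, Rpsa (0.31 ± 0.12, adjusted p = 0.978).

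**Figure D4:**
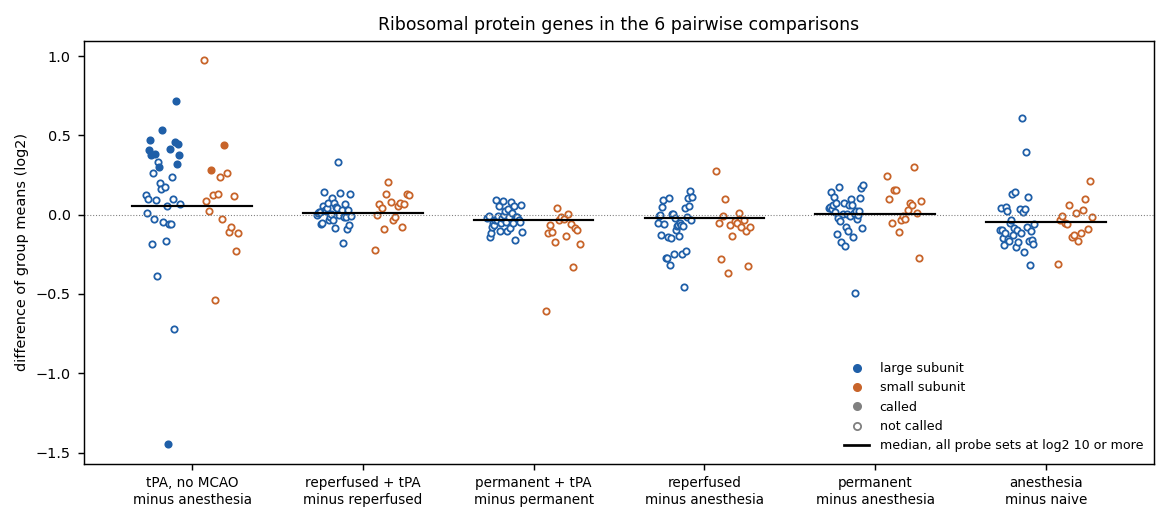
Difference in log2 level (y axis) of the 50 members in each of 6 pairwise comparisons (x axis, 6 rats per group), large subunit in blue and small in orange; filled points were called and black bars give the median of the 1221 probe sets at log2 10 or more. Called points occur only for tPA without MCAO, where 14 lie above 0 and 1 below; the 4 comparisons that involve anesthesia share its 6 arrays.

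Strokes without tPA were compared with anesthesia alone. In reperfused-MCAO rats 0 members were called, against 6.00% of all probe sets and 22.4% of bright ones. Here 6 members had an unadjusted p under 0.05 in limma, and the least squares fit called 0. Rpl41 had an adjusted p of 0.0411 but a small difference (-0.23 ± 0.05). It ran from 13.56 through 13.64 to 13.88 in reperfused-MCAO rats, against 13.82, 13.91 and 13.95 in anesthesia rats, so the ranges overlapped. In permanent-MCAO rats 0 members were called as well, against 2.78% of all probe sets and 9.34% of bright ones, with 3 at an unadjusted p under 0.05 in limma and 0 called by least squares. Rpl24 was higher on every permanent-MCAO array than on any anesthesia array, with a difference of 0.17 ± 0.04 (adjusted p = 0.12) that was under the fold threshold; 0.809% of all probe sets and 3.11% of bright ones had groups apart in this comparison. Anesthesia against naive gave 0 called members, against 0.821% of all probe sets and 1.88% of bright ones, with 2 at an unadjusted p under 0.05 in limma (Rpl39 and Rpl6) and 0 called by least squares. All of these comparisons share the anesthesia arrays with tPA without MCAO.

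The stroke term over all 42 arrays, any MCAO against none averaged over rats with and without tPA, called 9 members, against 15.4% of all probe sets (6.02% higher, 9.39% lower) and 35.4% of bright ones. Of these 8 were lower and 1 higher. Rpl39, a short peptide of the exit tunnel wall, fell by 0.35 ± 0.07 (adjusted p = 0.0015). The paralog Rpl3l fell by 0.65 ± 0.15, but its levels were near the floor of the array. Rpl26l1 (-0.36), Rpl3 (-0.33), Rpl6 (-0.32), Rpl14 (-0.28), Rpl23a (-0.27) and Rps3 (-0.27) also fell, and Rpl37-ps2 rose by 0.83 ± 0.22. Rpl26l1, at a mean of 3.37, was near the floor as well. Without replicate 1 of permanent-MCAO with tPA, Rps3, Rpl23a and Rpl14 were no longer called. The contrast includes the groups given tPA, and the 2 comparisons of MCAO without tPA with anesthesia, above, called none of the members. Of the 35 ribosome assembly genes 24 fell and none rose in this term, and of the 73 mitochondrial ribosomal protein genes 26 fell and 1 rose. In the same term 8 of 9 T cell markers fell, and 6 of 7 platelet markers and 5 of 6 natural killer cell markers rose.

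Across all 7 groups, the F test called 15 members at an adjusted p of at most 0.05, against 9.87% of all probe sets and 47.4% of bright ones. They were 13 of 34 large subunit and 2 of 16 small subunit genes. Rpl39 came first (F = 8.87, adjusted p = 0.0015). Its median was 7.96 after tPA without MCAO, 7.48 and 7.32 in reperfused-MCAO with and without tPA, 7.49 and 7.41 in permanent-MCAO with and without tPA, 7.55 after anesthesia and 7.77 in naive rats. Rpl37-ps2 (adjusted p = 0.0131), Rpl19 (adjusted p = 0.017) and Rpl23a (adjusted p = 0.0202) followed. The count rested heavily on 1 array: without replicate 2 of tPA without MCAO 3 members were called, against 4.94% of all probe sets.

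Of the genes with a fixed place in this account, Rplp0, the stalk base often used as a reference gene, had group medians between 13.13 and 13.33. Rpsa had group medians between 12.60 and 12.82, and Rps6 between 13.002 and 13.275. None of the 3 was called in any comparison.

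The large and small subunits were set against each other as the mean of the 29 large minus the mean of the 13 small subunit proteins proper on each array, as a description without a test. The value was -0.39 ± 0.03 after tPA without MCAO and -0.42 ± 0.05 after anesthesia (SD, n = 6 each). It was -0.41 ± 0.04 in reperfused-MCAO rats with tPA and -0.40 ± 0.03 without. It was -0.33 ± 0.08 in permanent-MCAO rats with tPA and -0.43 ± 0.03 without. In naive rats it was -0.38 ± 0.04. Arrays ran from -0.436 to -0.347 after tPA without MCAO and from -0.506 to -0.350 after anesthesia, so these 2 groups overlapped. The means depend on dim probe sets such as Rps13 and Rpl28. Over the members at log2 10 or more the value was -0.04 ± 0.03 after tPA without MCAO, where arrays ran from -0.0765 to 0.0026, and -0.14 ± 0.03 after anesthesia, where they ran from -0.175 to -0.0848. Over these members the 2 groups did not overlap and the value was 0.10 log2 higher after tPA. This measure was not among those planned, and anesthesia had the lowest mean of the 7 groups on it. The value was -0.12 ± 0.03 in reperfused-MCAO rats with tPA and -0.08 ± 0.05 without, -0.08 ± 0.06 in permanent-MCAO rats with tPA and -0.12 ± 0.04 without, and -0.09 ± 0.04 in naive rats. The ranges of all 5 of these groups reached into that of tPA without MCAO. By count, 13 of 34 large subunit genes (12 higher, 1 lower) and 2 of 16 small subunit genes were called after tPA without MCAO, against 13.7% of all probe sets and 51.3% of bright ones. The lower one was the pseudogene Rpl37-ps2, and the paralog Rpl7l1 was among the higher ones. The difference between the subunits was not tested.

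The members did not move as one. Over the 36 arrays outside tPA without MCAO, deviations from the group means of the 38 bright members had a median correlation of 0.42 within the large subunit, 0.38 within the small subunit and 0.43 between the subunits. Single pairs ran from -0.74 to 0.95, with 48 of 325 large subunit pairs negative. Rpl7a (mean correlation 0.55 with the other members), Rps16 and Rpl19 followed the rest most closely. Rpl41 went against them, with a mean correlation of -0.19. Over all 42 arrays its mean correlation was 0.09, still the lowest of the bright members. Arrays share processing as well as blood, so these values are descriptions.

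The members with the most extreme tPA by stroke terms were set beside the erythroid and T cell marker means within groups, on the same 36 arrays, in 14 relations. Such relations were not computed for other probe sets, so the values do not show a trait particular to these members. Rpl6 was lower where erythroid markers were higher (Pearson r = -0.82, Spearman rho = -0.84, permutation adjusted p = 2.8e-05 for both, from a raw p of 1e-05, the smallest that the permutations could give). It was higher where T cell markers were higher (r = 0.81, rho = 0.71, permutation adjusted p = 2.8e-05 and 4e-05). Without the 2 arrays farthest from the erythroid median r was -0.80. Rpl41 ran the other way, with r = 0.75 and rho = 0.68 for the erythroid markers (permutation adjusted p = 0.000227 and 0.000192), and r was 0.68 without the 2 farthest arrays. Rpl37-ps2 had r = 0.79 and rho = 0.75 with the erythroid markers, and r was 0.77 without those arrays.

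Rpl3 and Rpl18 were like Rpl6, with r of -0.81 and -0.86 for the erythroid markers. Rps13 had r of -0.62 with the erythroid markers. Its relation with the T cell markers (r = 0.55) and that of Rpl41 (r = -0.50) came down to 0.30 and -0.28 without the 2 farthest arrays, so they rest on those arrays. Rps24 had no detectable relation to either mean (r = 0.28 and -0.04, permutation adjusted p = 0.16 and 0.855). The groups enter these values only as means taken out, and permutations were made within groups.

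**Figure D5:**
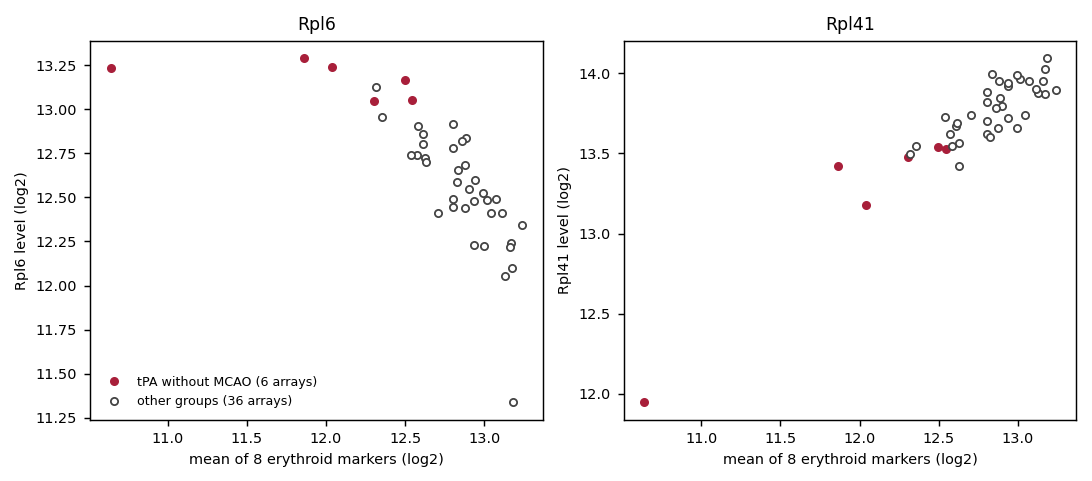
Level of Rpl6 (left) and Rpl41 (right) on the log2 scale (y axes) against the mean log2 level of 8 erythroid markers (x axis) on 42 arrays, with tPA without MCAO filled in red. Rpl6 lies lower and Rpl41 higher where the markers are high, and the red points lie at the low end of the markers.

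Members with a pyrimidine run near the start were set beside members without one, as a description with no test. After tPA without MCAO the median difference was 0.13 for the 19 with a run, of which 3 were called, and 0.13 for the 24 without one, of which 8 were called; of all probe sets 13.7% were called. For the tPA by stroke term the medians were -0.14 with a run and -0.15 without, with 5 of 19 and 8 of 24 called, against 21.0% of all probe sets. Of the windows printed above, Rpl19, Rpl14 and Rpl39 carry the run and rose, but they were chosen because they were called and carry it. Rps24 and Rps13 carry it and were not called after tPA without MCAO, Rps24 standing low and Rps13 high. Rpl6, Rpl3 and Rpl18 rose with no run found, and Rpl41, also without one, stood low and was not called. The printed windows therefore do not show how calls and runs go together.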

How the data were processed

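Whole blood RNA of 42 rats was measured on Affymetrix rat expression arrays. The deposited values are log2 signals that the authors made with GC-RMA in Partek Genomics Suite; GC-RMA equalises the distribution of the arrays, so levels are relative. Blood was taken into PAXgene tubes and RNA amplified with a Nugen Ovation kit. Symbols came from the platform annotation, and promoter sequences and positions from RefSeq (GRCr8). Control probe sets (57) were set aside, leaving 31042.

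Fits used limma 3.58.1 in R 4.3.3 with statmod 1.5.0. The model over 42 arrays held tPA, stroke, anesthesia (all groups but naive) and tPA by stroke, and pairs were fitted on their 12 arrays. That rats given tPA without MCAO counted as anesthetised in this model was an assumption. Calls used the thresholds of the study's methods, p at most 0.05 (42 arrays) or 0.01 (12 arrays) with a fold of at least 1.2, and the F test used an adjusted p of 0.05. P values were adjusted over all probe sets by Benjamini-Hochberg. Relations used 100000 two-sided permutations. Scripts were tested on simulated data. The members and lists were chosen with earlier results of these data known. Named genes are the 4 most positive and 4 most negative called members of each comparison, the 4 smallest adjusted p values of the F test, the 5 highest and 5 lowest means, Rplp0, Rpsa, Rpl5, Rpl11 and Rps6, genes sharing a base symbol, and 2 genes per other list by the F test; Rpl4, Rpl7a, Rpl12, Rpl14, Rpl24, Rpl27, Rpl27a, Rpl35, Rps3, Rps9 and Rps16 fell outside this rule and were named after their values were seen. Alternatives covered scaling, weights, an intensity trend, plain least squares (the methods' test), dim probe sets, control levels, a replicate block, single arrays and naive rats as the reference. The number of arrays limits the precision.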

Additional observations from a re-analysis of the deposited data

Results flagged for a closer look

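For 13 members the tPA effect with MCAO and the tPA effect without MCAO differed at an adjusted p of at most 0.05 in limma, against 9.47% of all probe sets. The difference was -1.39 for Rps13, -0.77 for Rpl6, -0.55 for Rpl3, -0.54 for Rpl18, -0.50 for Rpl7a, -0.48 for Rpl5, -0.43 for Rpl19, -0.32 for Rpl7, -0.32 for Rps16 and -0.26 for Rps23, which was under 1.2-fold. It was 0.63 for Rps24, 0.67 for Rpl41 and 1.61 for Rpl37-ps2.

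Single arrays stood apart from the other 5 of their group by Dixon's ratio in 16 of 147 groups of values examined, where chance flags about 1 in 20. The members share the same arrays and many move together, and 1 array can be flagged for several of them. The groups of values are therefore not independent, and the count was not tested against that rate. In tPA without MCAO, replicate 2 was lowest for Rpl37-ps2 (6.60, next 8.43), Rpl41 (11.95, next 13.18) and Rps24 (11.24, next 12.08). In the same group replicate 6 was highest for Rpl23a (12.80, next 12.60) and replicate 3 highest for Rpl7 (13.83, next 13.71).

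In reperfused-MCAO with tPA, replicate 3 was lowest for Rpl18 (11.95), Rpl19 (13.56), Rpl39 (7.15), Rpl5 (12.90), Rpl7 (13.18) and the large subunit mean (11.82). In permanent-MCAO with tPA, replicate 1 was lowest for Rps13 (2.47, next 5.26) and for the small subunit mean (11.99). In naive rats, replicate 5 was highest for Rpl27 (13.40), Rpl7 (13.78) and Rpl7l1 (9.40).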

How the results depend on the processing

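Counts of called members depended on the setting in places, and the cause was not tested. The share of all probe sets called also moved with the setting, as given above for some settings. It is not given beside the counts here, so they do not show a change particular to the members. Over 7 groups 15 members were called, but 29 with array weights, 8 with a replicate block, 3 without the tPA array of low hybridization controls and 1 with the control level in the fit. With that level in the fit the counts were 4 for tPA without MCAO (15 otherwise), 3 for tPA by stroke (17), 2 for the stroke term (9), 0 for the tPA term (3), 1 for tPA in reperfused-MCAO (0) and 2 for reperfused-MCAO against anesthesia (0), and 3 values changed sign: Rpl37-ps2 in the tPA term (0.13), Rpl41 (-0.0031) and Rpl39 (0.0068) in tPA by stroke. Array weights called 6 members for the tPA term, 5 for the stroke term and 1 for anesthesia against naive. Quantile scaling called 9 for the tPA term, and leaving out replicate 1 of permanent-MCAO with tPA, added after seeing the data, called 5. With naive rats in place of anesthesia rats, also added after seeing the data, tPA without MCAO called 4. Of the 44 single calls, 44 held with an intensity trend, 43 with quantile scaling, 43 with least squares, 43 with the replicate block and 35 with median centring.

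Large minus small subunit values moved by more than the spread between arrays in 6 cases. The measure over members at log2 10 or more was not among those planned. For tPA without MCAO (0.0325) they were -0.0104 averaging probe sets, 0.121 by medians and 0.101 over members at log2 10 or more. The other 3 were tPA in permanent-MCAO by medians (0.0017, against 0.0928), reperfused-MCAO against anesthesia over members at log2 10 or more (0.0661, against 0.0207) and anesthesia against naive by medians (-0.0823, against -0.0350).

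Replicate numbers did not pair the rats: same-numbered arrays of different groups had a median correlation of deviations of -0.03 (range -0.49 to 0.44), with 36 of 126 pairs over 0.1. The replicate block left tPA by stroke at 17 and tPA without MCAO at 16 called members.

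Limits remain. The 7 members under log2 4 carry little information on a difference, and that covers the stroke term calls of Rpl3l and Rpl26l1. Rplp1, Rplp2 and Rps19 had no probe set with 1 symbol. The arrays carry no absolute scale. The group given tPA without MCAO had the lowest mean control level of the 7 groups, with the highest T cell and lowest erythroid marker means. Each of these ranges overlapped that of at least 1 other group. The control level and these marker levels moved together and cannot be told apart.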
